A study of Caenorhabditis elegans with 2 samples.

Results

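The Pumilio family of Caenorhabditis elegans was examined for binding of the zinc finger protein ZTF-22 at its own genes. The family here is a list of 10 protein-coding genes of 19973 on the nuclear chromosomes: puf-9, described as the somatic member, and 9 others, puf-8, fbf-1, fbf-2, puf-3, puf-5, puf-6, puf-7, puf-11 and puf-12, set against it as the germline members. The set was selected on signal values already seen in these data, where puf-9 stood among the strongest peaks, so the strength of the puf-9 peak is given as a description with no test. All regions whose summit lay from 3 kb upstream of a gene to its end were taken, which is called the window of the gene below. Region lists carry no expression values, so the labels soma and germline were not checked here. No germline role is given below for puf-12, which stands among the germline members by the list alone.

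Pumilio (PUF) proteins are RNA-binding proteins that recognise a short sequence, usually in the 3' untranslated region of messenger RNAs, and mostly repress translation or shorten the life of the message. In C. elegans, FBF-1 and FBF-2 keep germline stem cells dividing, PUF-8 acts in the germ line in the control of cell division and gamete fate, and PUF-3, PUF-5, PUF-6, PUF-7 and PUF-11 act in oogenesis. PUF-9 acts in somatic tissues, where it takes part in the larval timing pathway and represses the transcription factor gene hbl-1. The data below concern the DNA of these genes and not the targets of their proteins.

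All animals were of 1 strain, OP676, which carries the unc-119 allele tm4063 and the transgene wgIs676. The transgene holds ztf-22 joined to the tags TY1, EGFP and 3xFLAG, and unc-119(+), so the tagged ZTF-22 came from the transgene. There was no group without the transgene. They were whole young adults of mixed sex, 68 hours old, from cultures synchronised by starvation after bleaching, and a whole-animal signal does not tell tissues apart. Chromatin bound by the fusion protein was precipitated with an anti-GFP antibody and sequenced in 2 biological replicates. With 1 group, genes were compared with each other and replicates with each other. The authors deposited 30000 candidate regions for each replicate and for the pooled reads, most of them weak, and a short list of optimal peaks, which were the strongest pooled regions, with signal values of 110 or more. A rank is the place of a region by the authors' signal value within its own list of 30000, with 1 the strongest. Read depth is unknown from these files, and positions are ce11.

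Optimal ZTF-22 peaks lay at puf-9 and at no other family member. The window of puf-9 (WBGene00004245, chromosome X, 5841592 to 5845987, + strand) held 2 optimal peaks, while the windows of the other 9 members held 0. Thus 1 of 10 members had an optimal peak, against 5.4% of all protein-coding genes in windows of the same kind, and the count of members with a peak is not apart from that background. Having 2 or more was rare, at 0.491% of all protein-coding genes. However, 1 of the 2 puf-9 peaks lay nearest to the start of another gene, dct-11. The puf-9 window, at 7396 bp, is also longer than the median of 5027 bp over all protein-coding genes. The puf-9 gene is also the only member on the X chromosome, where windows of 8.02% of the genes held such a peak, and 6 of the others lie on chromosome II and 3 on chromosome IV.

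**Figure D1:**
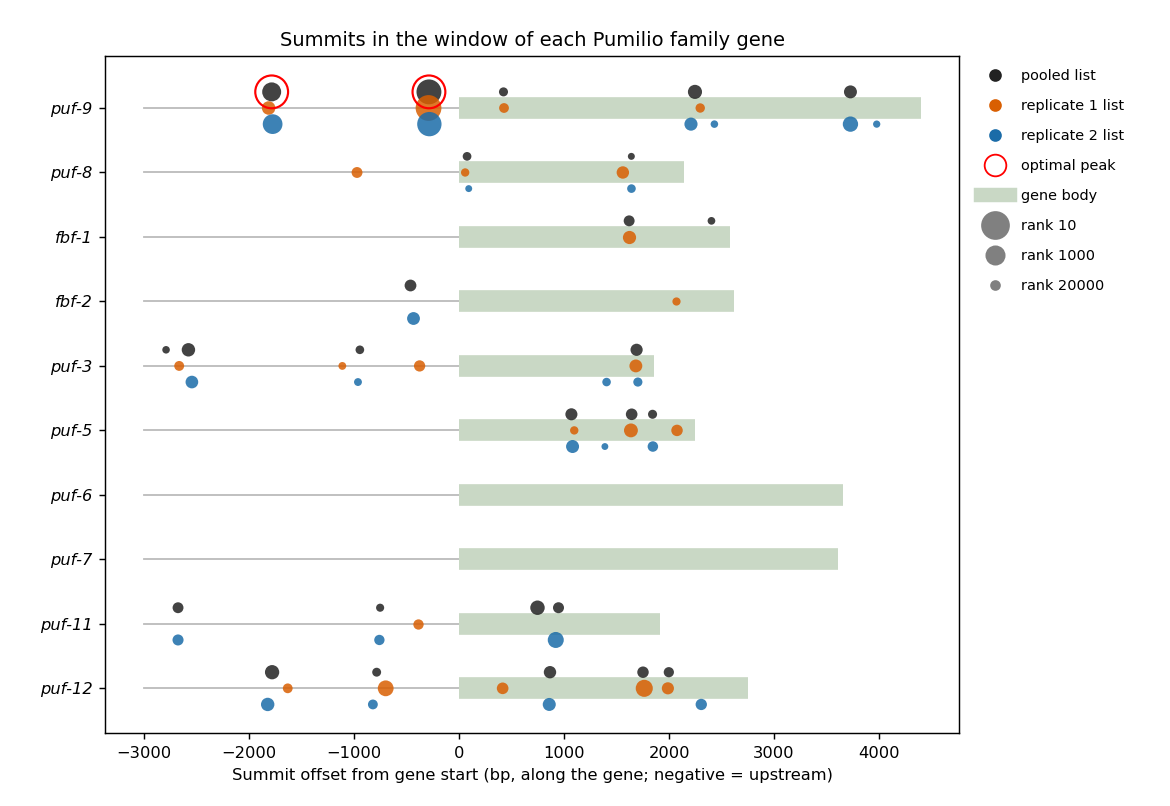
Summits in the window of each Pumilio family gene, as bp from the gene start along the gene (x axis), with 1 row per gene and the pooled, replicate 1 and replicate 2 lists as black, orange and blue points whose size grows with strength. Red circles mark the 2 optimal peaks, both upstream of puf-9, and the rows of puf-6 and puf-7 are empty.

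The stronger peak of puf-9 was at almost the same base in both replicates. Its summit lay at position 5841305 in the pooled list, 5841301 in replicate 1 and 5841309 in replicate 2, which is 287, 291 and 283 bp upstream of the gene start. It ranked 34 in the pooled list, with a signal value of 277 and a q value of 0.00137. The rank was 20 in replicate 1, with a signal value of 94.3, and 47 in replicate 2, with a signal value of 189. Signal values of different lists are on different scales, and only the ranks can be set side by side. Among all optimal peaks, 29 ranked within the top 50 of both replicates, this peak included, and 9 of them lay in a promoter window, within 500 bp before or 200 bp after the start of a protein-coding gene. Ordered by the strongest pooled region in the window, puf-9 was at place 45 of the 15365 protein-coding genes that had any, and it was at place 32 in replicate 1 and 61 in replicate 2.

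The DNA under the stronger peak is shown because it is the strongest ZTF-22 region of the family. It spans 100 bp on either side of the pooled summit at chrX:5841205-5841405 on the + strand, in the direction of puf-9 transcription, from the RefSeq genome of the WBcel235 build. Capitals mark the 1 match to the GATA-type site TGATAA, here on the reverse strand.

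puf-9 peak at -287: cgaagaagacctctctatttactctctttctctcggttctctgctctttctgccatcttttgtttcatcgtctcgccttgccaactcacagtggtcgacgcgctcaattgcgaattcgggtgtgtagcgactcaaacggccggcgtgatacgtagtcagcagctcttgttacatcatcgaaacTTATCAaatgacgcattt

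The summit lay in no exon of puf-9 but inside a pair of overlapping non-coding RNA genes on opposite strands, W06B11.7 (5841170 to 5841350, - strand) and W06B11.9 (5841185 to 5841361, + strand). In all, 102 optimal summits (10.7% of them), this one included, lay within a gene annotated as ncRNA. That count does not tell single genes from overlapping pairs. The GC content of the printed stretch is 47.8%, and that of the 301 bp around the summit is 47.5%, against a median of 42.2% over the optimal peaks. No 50-base word of the puf-9 window occurs a second time in the genome.

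The second optimal peak in the puf-9 window was weaker and lay closer to another gene. Its summit was at position 5839807, 1498 bp from the stronger one and 1785 bp upstream of puf-9, but only 29 bp upstream of the start of dct-11 (chromosome X, 5838039 to 5839778, - strand), the neighbour transcribed away from puf-9. It ranked 723 in the pooled list, with a signal value of 120. In the replicates it ranked 5884 in replicate 1, at position 5839778, and 515 in replicate 2, at position 5839816, so it stood well within the strong regions of replicate 2 and far lower in replicate 1. The lowest signal value among optimal peaks was 110. Of the family regions above that limit, this peak was the nearest to it. The strongest family region below the limit was one of puf-11, at rank 4302 with a signal value of 70.2, far from it.

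The bases between the start of dct-11 and 100 bp past the second summit are shown for comparison with the stronger peak, at chrX:5839779-5839907 on the + strand of the same build. Capitals again mark TGATAA on either strand, and the summit is base 29 of the printed run, so 1 of the 3 matches near it falls in this run.

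puf-9 peak at -1785: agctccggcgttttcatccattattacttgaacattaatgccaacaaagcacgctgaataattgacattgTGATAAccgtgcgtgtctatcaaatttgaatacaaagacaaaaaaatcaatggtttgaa

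The words searched within 150 bp of each summit, on both strands, were TGATAA, the E-box CACGTG, and CTGCGTCTC, a word already used on these data. The 301 bp at the second peak held 3 matches to TGATAA, and those at the stronger peak held 1, which begins 83 bp downstream of the summit. At least 1 match was present in 42.6% of the optimal peaks and in 24.7% of all pooled regions. Neither puf-9 peak held CACGTG, found in 16.7% of optimal peaks and 8.07% of pooled regions. The word CTGCGTCTC was at 0 of the 26 pooled regions of the family, and at 10.9% of optimal peaks and 2.93% of pooled regions. These are matches of letters and not sites of binding.

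Inside the puf-9 gene the pooled list had 3 weak candidate regions. The strongest, at 2247 bp from the gene start in coding exon 7, ranked 4801 in the pooled list, 17700 in replicate 1 and 6567 in replicate 2. Another in the 3' untranslated part of exon 9, at 3728 bp, ranked 6914 in the pooled list and 3152 in replicate 2, and had no match within 100 bp in replicate 1. The last, in an intron at 423 bp, ranked 19110 in the pooled list and 16215 in replicate 1, with no match in replicate 2. All 3 stood far below the optimal peaks. Replicate 2 alone had further regions in the gene, at 2432 bp (rank 25670) and 3978 bp (rank 26938).

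**Figure D2:**
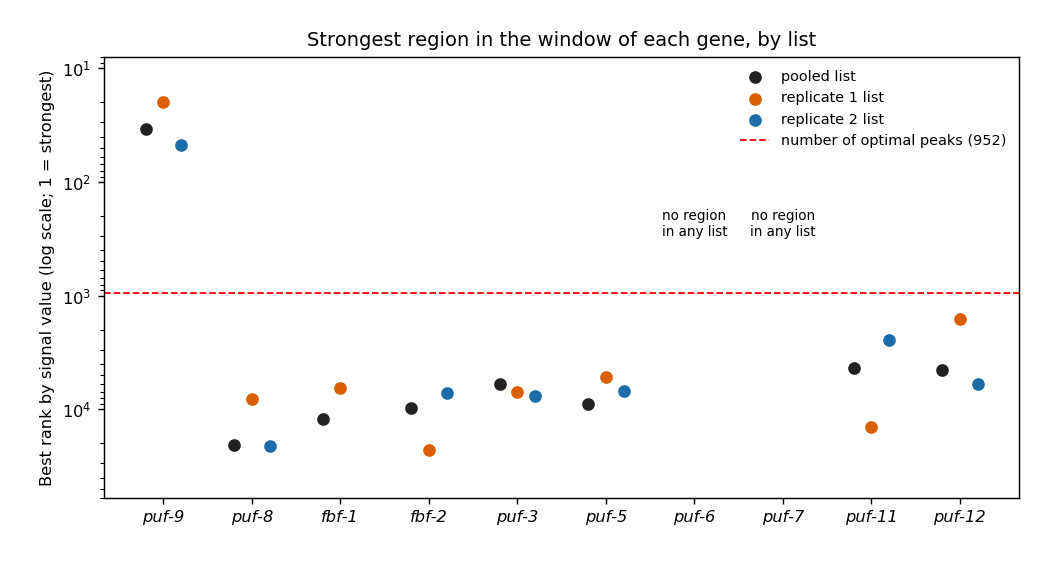
Best rank by signal value (y axis, log scale with the strongest at the top) of any region in the window of each gene (x axis), with points for the pooled, replicate 1 and replicate 2 lists and a dashed line at the number of optimal peaks. The 3 points of puf-9 lie between 20 and 47, those of the other members between 1621 and 22665, and puf-6 and puf-7 have none.

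The share of members with a candidate region was close to that of all genes, while the number of regions per kb was higher. In the pooled list 8 of 10 members had at least 1 region in the window, against 76.9% of all protein-coding genes. The count was 8 in replicate 1, against 79.5%, and 7 in replicate 2, against 77.1%. A region in both replicates, with summits within 100 bp of each other, was present at 4 members, puf-9, puf-8, puf-3 and puf-5, against 40.4% of all genes. The best pooled rank of the 7 other members with a region had a median of 9025 and ran from 4302 to 20477, and the median over the 15365 genes with a region was 8970. These 7 members were thus spread through the middle of the ranking, where most genes stand. Per kb of window, the other members held 0.417 pooled regions, against 0.320 for all protein-coding genes.

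**Figure D3:**
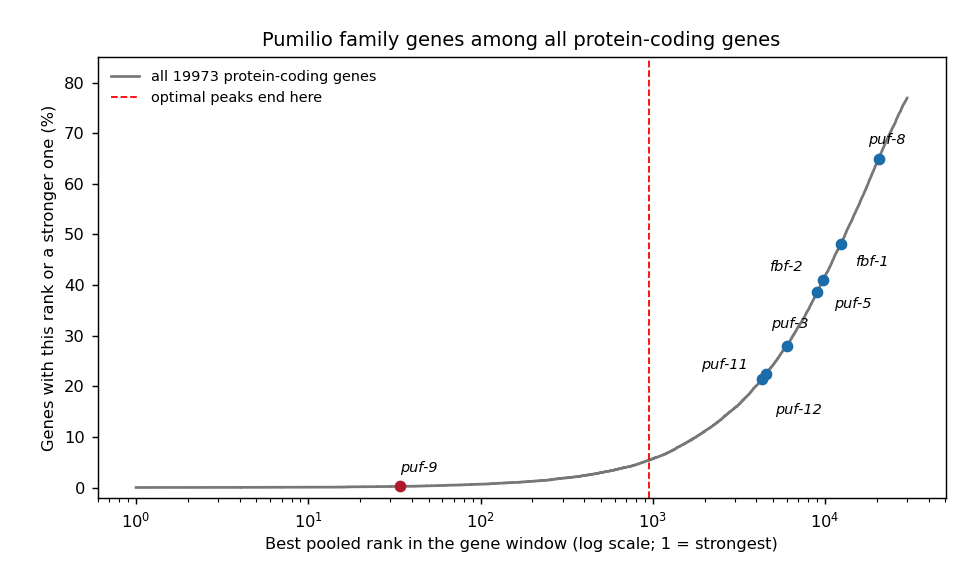
Share of all 19973 protein-coding genes (y axis, percent) whose window held a pooled region of a given rank or stronger (x axis, log scale), as a grey curve, with the 8 members that had a region marked. The point of puf-9 is at rank 34, left of the dashed line at the number of optimal peaks, and the other 7 lie right of it between 4302 and 20477.

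The genes of the germline stem cell regulators FBF-1 and FBF-2 had regions in number and rank not far from the median gene. All protein-coding genes had a median of 2 pooled regions, and those with a region had a median best pooled rank of 8970. The window of fbf-1 (WBGene00001401, chromosome II, 6078263 to 6080843, - strand) held 2 pooled regions, the stronger at rank 12316 in coding exon 5. That region ranked 6462 in replicate 1, and replicate 2 had no region in the whole window. The window of fbf-2 (WBGene00001402, chromosome II, 6088863 to 6091480, - strand) held 1 pooled region, at rank 9748 and 470 bp upstream of the gene, with rank 7224 in replicate 2 and no match in replicate 1. That summit lay in a coding exon of nspg-3, 183 bp past the start of this neighbour, so it cannot be assigned to fbf-2. Replicate 1 had a different fbf-2 region, in an intron at rank 22665.

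The puf-8 gene (WBGene00004244, chromosome II, 7296110 to 7298247, - strand) had a region at its start, the only germline member with one there in both replicates. It was also one of the weakest of the family. Its summit lay 76 bp past the gene start in coding exon 1, at rank 20477 in the pooled list, 22016 in replicate 1 and 28478 in replicate 2. A further region at 1641 bp ranked 28261 in the pooled list, 8149 in replicate 1 and 20901 in replicate 2. Replicate 1 alone had a region 972 bp upstream of puf-8, at rank 12381, and its nearest gene start was that of C30G12.1.

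The related genes puf-3 (WBGene00004239, chromosome IV, 13510307 to 13512162, - strand) and puf-11 (WBGene00022257, chromosome IV, 6421585 to 6423497, + strand) each had 4 pooled regions. The puf-3 gene lies inside afmd-2, which is transcribed in the opposite direction, and all 4 of its summits lay within afmd-2 or within dcap-2, a decapping enzyme gene. The strongest of them, at rank 6006, was in a coding exon of dcap-2, 2578 bp upstream of puf-3, and ranked 15802 in replicate 1 and 7610 in replicate 2. A region in the 3' untranslated part of puf-3 itself, 1691 bp from the gene start, ranked 8742 in the pooled list, 7126 in replicate 1 and 18690 in replicate 2. The strongest region of puf-11 was in its coding exon 2, 747 bp from the gene start, at rank 4302, and had no summit within 100 bp in either replicate. A second region of the same exon, at 947 bp, ranked 12039 in the pooled list and 2445 in replicate 2, the best rank of a germline member in that replicate. The other puf-11 regions lay upstream in neighbouring genes, at rank 12412 in a coding exon of Y73B6BL.23 and at rank 23106 in the 3' untranslated part of htp-2, and both were matched in replicate 2 only. Replicate 1 had no region in the puf-11 gene and 1 upstream, at rank 14324.

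The oogenesis gene puf-5 (WBGene00004241, chromosome II, 8575541 to 8577787, + strand) had 3 pooled regions, all in coding exons 3 and 5 and none upstream. The strongest ranked 9025 in the pooled list, 21990 in replicate 1 and 6887 in replicate 2. Another, at rank 10239, ranked 5208 in replicate 1 and was unmatched in replicate 2. The replicates thus put different regions of puf-5 first.

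The puf-12 gene (WBGene00014165, chromosome II, 10100310 to 10103061, + strand) had 5 pooled regions, as many as puf-9. The strongest, at rank 4531, lay 1781 bp upstream in a coding exon of lact-2, ranked 6048 in replicate 2 and was unmatched in replicate 1. In replicate 1 the best puf-12 region was in coding exon 5, at rank 1621, the best rank of any member other than puf-9 in any list. It ranked 10664 in the pooled list and had no match in replicate 2. Another region, inside the proteasome gene pas-7 and 785 bp upstream of puf-12 in the pooled list, ranked 19673 in the pooled list, 2638 in replicate 1 and 16015 in replicate 2. Of the remaining regions, 1 in coding exon 3, at rank 8241, was matched in replicate 2 only, at rank 6796, and 1 in coding exon 5, at rank 14623, was matched in replicate 1 only, at rank 8852. Each replicate thus had puf-12 regions that the other lacked. None of these passed as optimal.

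The pooled regions of the family lay both upstream of the genes and inside them. Inside their own gene lay 3 of the 5 pooled regions of puf-9 and 13 of the 21 of the other members. These counts were not set against the length of the gene within each window. Of the 5 pooled regions of puf-9, 1 had its summit in a coding exon of any gene, against 16 of the 21 pooled regions of the other members. Over the whole series, 6.3% of optimal peaks and 35.5% of all pooled regions lay in coding exons. The windows hold gene bodies by construction.

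Sites of the other members were found in both replicates about as often as pooled regions at large. Of the 5 pooled regions of puf-9, 3 had a summit of each replicate within 100 bp, against 6 of the 21 (28.6%) of the other members. The shares were 89.8% over optimal peaks and 30.9% over all pooled regions. Each replicate summit was set against the pooled summit here, so the replicate summits could lie more than 100 bp apart. The 6 matched sites of the other members ranked between 2638 and 22016 in replicate 1 and between 6887 and 28478 in replicate 2. All 6 ranked below both optimal peaks of puf-9 in replicate 2. In replicate 1 the matched puf-12 site, at rank 2638, stood above the second puf-9 peak, at rank 5884. The replicate summits of that puf-12 site lay 122 bp apart, so puf-12 was not counted above among members with a region in both replicates.

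**Figure D4:**
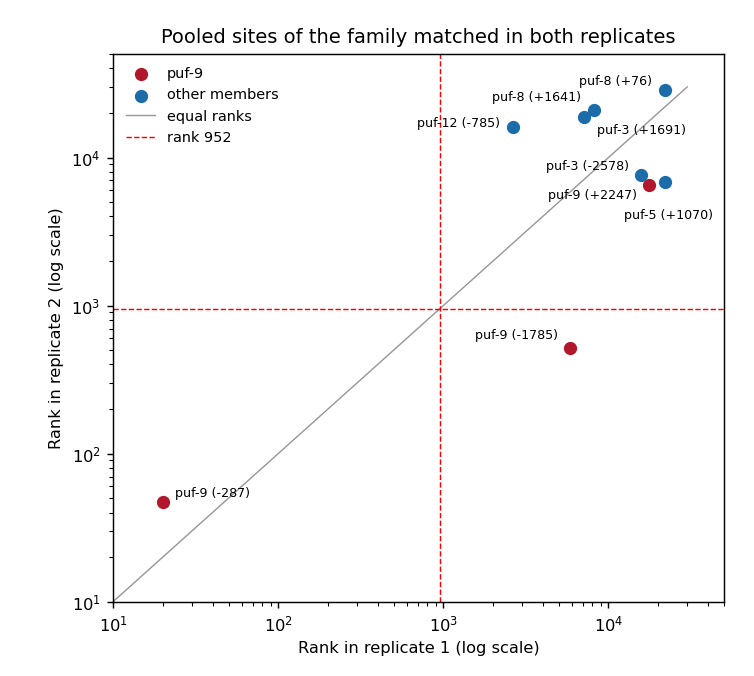
Rank in replicate 1 (x axis) against rank in replicate 2 (y axis), both on log scales, of the 9 pooled family regions matched in both replicates, each labelled with its gene and its offset in bp from the gene start. The puf-9 region at -287 lies at 20 and 47, the one at -1785 at 5884 and 515, and the other 7 lie beyond the dashed lines at the number of optimal peaks on both axes.

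Both puf-6 (WBGene00004242, chromosome II, 13039792 to 13043445, - strand) and puf-7 (WBGene00004243, chromosome IV, 5486713 to 5490322, + strand) had no region of any kind in the window. No summit of the pooled list or of either replicate lay in the 6654 bp of puf-6 or the 6610 bp of puf-7, whereas the other 8 members had 3 to 15 regions over the 3 lists. Of all protein-coding genes, 9.97% had none. The nearest pooled summits lay 3919 bp outside the window of puf-6 and 4654 bp outside that of puf-7. The lists hold only regions above a minimum, so an empty window gives no value for the ZTF-22 signal there.

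These genes are near-copies of each other on different chromosomes. Their coding sequences, each 1455 bp long, differed at 22 bases and were 98.5% identical. Coding identity was 91.9% between fbf-1 and fbf-2 and 90.3% between puf-3 and puf-11, and the next closest pair, puf-5 and puf-6, had 61.4%. For puf-6 and puf-7 the likeness went on upstream: in each 500 bp step of the 3 kb before the gene, 96.6% to 99.4% of the bases were identical. The puf-3 and puf-11 pair and the fbf pair shared only the nearest 500 bp upstream, at 83.0% and 69.6%.

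The first 120 bases of exon 2, all coding, show how little separates the puf-6 and puf-7 copies compared with the fbf pair. Each is read along its gene, capitals mark bases that differ from the partner, and the sequences are from the RefSeq genome of WBcel235 at chrII:13043116-13043235 (- strand), chrIV:5486923-5487042 (+ strand), chrII:6080513-6080632 (- strand) and chrII:6091163-6091282 (- strand). The puf-6 and puf-7 stretches differ at 4 bases and the fbf-1 and fbf-2 stretches at 20.

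puf-6: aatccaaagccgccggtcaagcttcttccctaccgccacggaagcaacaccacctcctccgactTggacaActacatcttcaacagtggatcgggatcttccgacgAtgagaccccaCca

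puf-7: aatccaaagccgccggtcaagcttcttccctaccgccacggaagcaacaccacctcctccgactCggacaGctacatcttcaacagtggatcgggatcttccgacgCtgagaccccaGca

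fbf-1: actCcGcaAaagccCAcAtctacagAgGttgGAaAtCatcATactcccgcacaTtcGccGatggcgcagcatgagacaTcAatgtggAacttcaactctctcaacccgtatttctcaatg

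fbf-2: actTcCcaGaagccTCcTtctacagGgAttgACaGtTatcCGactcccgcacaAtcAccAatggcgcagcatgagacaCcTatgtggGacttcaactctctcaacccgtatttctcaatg

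Windows with much repeated sequence seldom held a region across the genome. Of the 50-base words in the window, 52.7% occur more than once in the genome for puf-6 and 52.5% for puf-7, against 23.9% for fbf-1, 9.36% for fbf-2, 1.85% for puf-11, 0.354% for puf-3 and 0 for puf-9, puf-8, puf-5 and puf-12. The median over all protein-coding windows was 0.190%. Among the 414 genes with over 50% repeated words, 75.1% had no region in any list, against 7.15% of the 9036 genes with none. Stretches without a region were not all repeated. No list placed a region in the upstream 3 kb of fbf-1, with 27.1% repeated words, or in that of puf-5, with 0, while the fbf-1 gene itself, with 20.2%, held regions. The deposited descriptions name signal tracks of unique reads, but how reads that match several places were treated in the region lists is not given in the sources used here, and the part of repeated sequence in the empty windows was not tested.

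**Figure D5:**
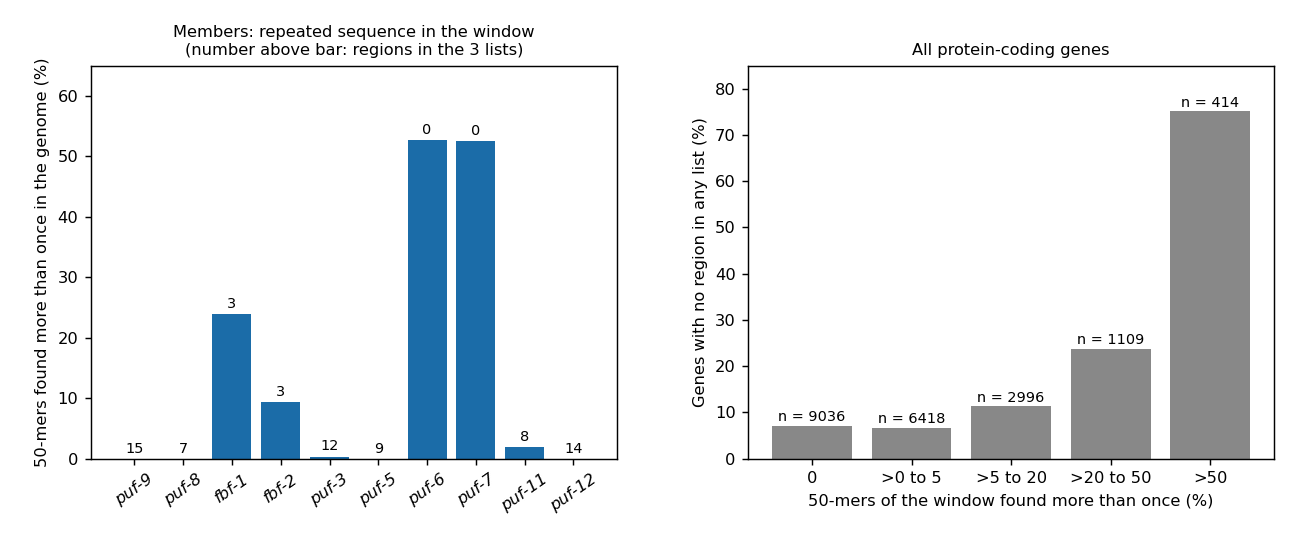
Left, the percentage of 50-base words in the window of each family gene that occur more than once in the genome, with the number of regions over the 3 candidate lists above each bar. Right, the percentage of all protein-coding genes with no region in any list, by the same measure, which is 7.15% for windows with no repeated word and 75.1% above 50%.

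The windows of some genes that work with the family held optimal peaks, in both gene lists examined. These lists were drawn up with earlier results of these data known. Of 25 partners, regulators and targets of the germline PUF proteins, 5 (20%) had one, against 5.4% of all genes, though their median window of 6119 bp is longer than the 5027 bp of all genes. They were larp-1, an RNA-binding protein gene (rank 84), ifet-1, a translational repressor gene (rank 108), lag-1, the transcription factor of Notch signalling (rank 587), ccf-1, a deadenylase gene (rank 737), and tra-2, a sex determination gene (rank 877). The summit was nearest to the start of another gene for 4 of these, wip-1 at larp-1, rps-1 at ifet-1, Y56A3A.22 at ccf-1 and eif-2Bgamma at tra-2, and in an intron for lag-1. The tra-2 peak ranked only 5498 in replicate 1.

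Of 11 genes of larval timing and microRNA function linked to puf-9, 3 (27.3%) had one, against 5.4% of all genes, in windows with a median length of 9674 bp, against 5027 bp for all genes. The microRNA cofactor gene nhl-2 had 1 at rank 8, whose summit was 841 bp upstream and nearest to the start of tag-340, with ranks of 40 in replicate 1 and 4 in replicate 2. The microRNA complex gene ain-1 had 1 at rank 438, which ranked 202 in replicate 2 and had no match in replicate 1. The timing gene lin-14 had 2, the stronger at rank 516 in an intron. The gene hbl-1, reported to be repressed by PUF-9, lies 13.8 kb from puf-9 on the same chromosome (5822142 to 5827755, + strand) and had no optimal peak. Its strongest pooled region, 2009 bp upstream, ranked 2090, with ranks of 6922 in replicate 1 and 2000 in replicate 2.

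The promoter peaks most like that of puf-9 in strength were picked by rank alone, and the functions of their genes were not compared. Likeness was the summed difference in log2 rank over the pooled list and both replicates, among 306 other optimal peaks in promoter windows matched in both. The nearest was that of cdc-48.1, a chaperone ATPase gene, with a distance of 1.11 and ranks of 25 pooled, 16 in replicate 1 and 37 in replicate 2. It was followed by the peak of H12C20.7 and nhr-68 at 1.26, kel-3 at 1.65, sec-61.B and trap-3 at 1.80, and F44E5.4 and F44E5.5 at 1.92. All 5 ranked between 14 and 69 in both replicates.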

How the data were processed

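ZTF-22 was profiled by ChIP-seq in 2 biological replicates of 1 group. Per the deposited file descriptions, the authors made a region list for each replicate, for pooled reads, and for optimal peaks chosen with the irreproducible discovery rate, all on ce11 and against 1 control alignment. Not given in the sources used here: aligner, caller, thresholds. Regions were ranked within a list by the authors' signal value as deposited. The deposited −log10 q value is given as q for the strongest peak. Read depth is unknown.

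Genes came from Ensembl release 115 and sequence from RefSeq, both WBcel235, whose chromosome lengths fit all regions. Positions count from 1. Summits of different lists within 100 bp were matched. Words of 50 bases, and 36 as a check, were counted over both strands of the nuclear chromosomes. Coding sequences were aligned globally with Biopython 1.88, and Python 3.11.15 and pandas 2.3.3 did the rest. Counting of windows and words was tested on simulated or brute-force data.

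Members, gene lists, words and the rules for named genes were chosen with earlier results of these data known. Named genes were all members, listed partners with an optimal peak, neighbours at a shared summit and the 5 peaks most like that of puf-9. The hbl-1 region and the repeated-word measure were chosen after values were seen. The names puf-2, puf-4 and puf-10 matched 0 genes of the annotation. No test was run: there is 1 group, and the gene of the strongest peak was selected on its value.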

Additional observations from a re-analysis of the deposited data

How the results depend on the processing

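No paired analysis was possible because there is 1 group. The count of 1 member with an optimal peak, puf-9, was the same under 7 alternatives, where 1.91% to 5.97% of all genes had one. Those on the window were a shorter upstream part of 1 kb, a window around transcript starts, an upstream part stopped at the next gene, and any overlap. Those on the list were the strongest 50% of the optimal list, and the top-ranked candidate regions of either replicate in place of optimal peaks. Most of these could not have changed the count, because a smaller window adds no peak and puf-9 was selected on its peak strength. The unchanged count is therefore no support. The count of 8 members with a pooled region fell to 3 (puf-9, fbf-2 and puf-8) in windows around transcript starts. These ran from 500 bp before to 200 bp after, and 28.3% of all genes had a pooled region there. The count was 7 or 8 under the other 5 alternatives (7 to 8 with 1 replicate left out). Of all genes, 63.0% to 79.5% had a region under those 5. The count of 4 members with a region in both replicates was 4 with summits within 50 bp and 5 within 200 bp. The shares of all genes were 28.9% and 48.1%. The puf-9 peak ranked 34 by signal value. By −log10 q it ranked 1, a place shared by 365 regions with the same q value, and it ranked 20 without replicate 2 and 47 without replicate 1. A ranking by p-value was not run because that column holds no value. With 36-base words the repeated share was 63.4% for puf-6 and 62% for puf-7. With 2 replicates and no read counts, a region missing from 1 list cannot be told apart from one too weak to be listed.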
